A study of Mus musculus with 22 samples.

Results

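The TNF superfamily is a family of cytokines and their receptors, and 9 of its genes were followed in the hypothalamus of mice, where body temperature is controlled. They were the ligand genes Tnfsf10, Tnf and Tnfsf13b and the receptor genes Fas, Cd40, Tnfrsf1a, Tnfrsf1b, Tnfrsf12a and Tnfrsf11b. They were taken by symbol from the platform annotation. Each was read by 1 probe set, and together they are 9 of the 19935 genes tested. All animals were male C57bl6 mice aged 9 to 12 weeks, and those lacking interleukin-6 (IL-6 KO) were compared with wild-type (WT) littermates. They were killed 3 h after a single intraperitoneal injection of Escherichia coli lipopolysaccharide (LPS, a bacterial product that triggers fever) at 120 µg/kg, or of saline. There were 7 IL-6 KO arrays after LPS, 4 IL-6 KO arrays after saline, 7 WT arrays after LPS and 4 WT arrays after saline. The design text sets out to compare the LPS-treated genotypes, as mice without IL-6 do not develop fever.

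Ligands of this family act as trimers on the surface of cells or after being shed. Tnf, the founding member, is a fever-inducing cytokine released by macrophages and microglia. Some receptors, among them Fas and Tnfrsf1a, carry a death domain and can start apoptosis. Others, among them Cd40, Tnfrsf1b and Tnfrsf12a, recruit TRAF adaptors and activate NF-kB. Tnfrsf11b, osteoprotegerin, is secreted and traps ligands.

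All values are read as log2 values from which each probe set's median over the 22 arrays had been subtracted, so 0 is the median array. Levels were lost in this step, and genes are not ranked by level. The presence of hypothalamic or other cell markers could likewise not be checked against 0. Group means are given with SDs and fitted log2 differences with standard errors (SE). A gene was called where the adjusted p of limma, a linear-model test fitted over all genes, was under 0.05. Whether every array came from its own animal is not stated, and p-values cover the spread between these arrays. The Il6 probe set was not lower in arrays labelled KO: it averaged 0.24 ± 0.20 in KO and 0.07 ± 0.14 in WT after LPS (SD, n = 7 each). The altered stretch of Il6 is not stated, a probe set lying outside it checks nothing, and the genotypes rest on the labels. Choroid plexus markers marked WT saline replicate 1 (list mean 0.93, with the next highest array at 0.30, WT LPS replicate 5). Pituitary markers marked KO saline replicate 2 (list mean 1.04), KO LPS replicate 3 (0.94) and KO LPS replicate 5 (0.53), and the next highest array was at 0.15.

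LPS raised 3 of the 9 genes in IL-6 KO hypothalamus and 4 of the 9 in WT. Tnfsf10, Fas and Cd40 rose in both genotypes, and Tnfrsf1b was called in WT. Tnf itself was called in neither. Over all genes, 1.08% were called higher in KO and 1.42% in WT, and no member was called lower (0.256% of all genes in KO and 0.376% in WT). At an unadjusted p under 0.05 there were 4 members in KO and 5 in WT, beside 5.84% and 6.42% of all genes. The median LPS difference of the members was 0.12 in KO and 0.22 in WT on the log2 scale, beside -0.01 over all genes in each genotype. The members were chosen with earlier results of these data known, so these shares and medians are descriptions.

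**Figure D1:**
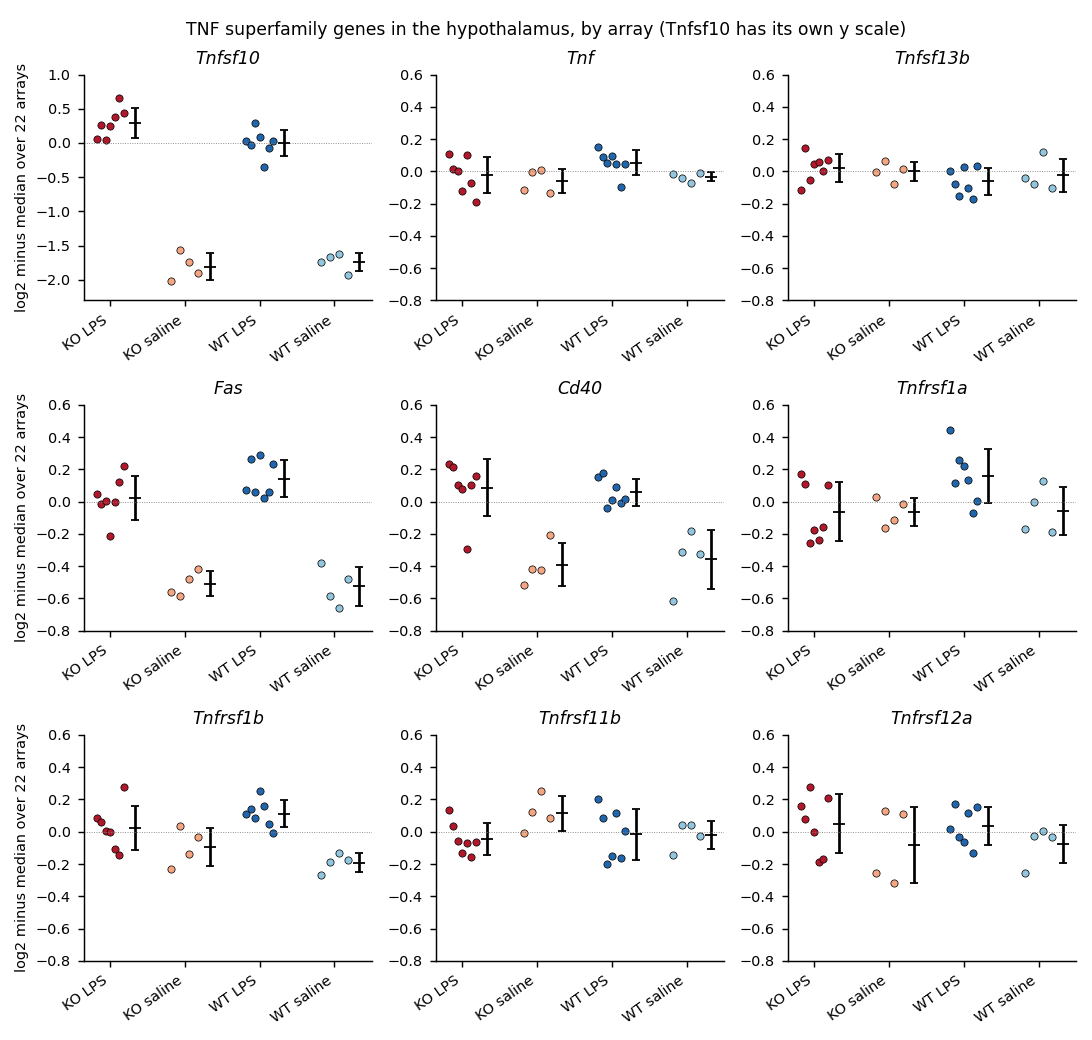
Values of the 9 genes in each of the 22 arrays (y axis, log2 minus the probe set's median over all arrays) by group (x axis). Points are arrays, and black bars are the group mean and SD. Tnfsf10 has its own scale, on which LPS arrays lie between -0.35 and 0.66 and saline arrays between -2.01 and -1.56.

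The promoters of Tnfsf10, Fas and Tnfrsf1b are shown because these genes rose with LPS, with that of Tnfsf13b, which did not pass the test, beside them. Windows of 300 bases, from 250 before to 50 after the gene's start, come from RefSeq on GRCm38.p6 and matched 7 of the 9 members by symbol, all but Cd40 and Tnfrsf11b. They were searched on both strands for the core of the interferon-stimulated response element (GAAA, any 2 bases, GAAA), for a form of the kB site (GGG, any 2 bases, TTTCC) and for the STAT-binding GAS form (TTCNNNGAA). Of 32851 windows, 3.44% held the first, 1.63% the second and 8.3% the third. No matches overlapped in the windows of these 7 genes. Tnfsf13b has 2 windows, of which the one with a match is printed. Matches are in capitals, and each sequence runs 5′ to 3′ on the gene's strand:
Tnfsf10, chr3:27316827-27317126, + strand: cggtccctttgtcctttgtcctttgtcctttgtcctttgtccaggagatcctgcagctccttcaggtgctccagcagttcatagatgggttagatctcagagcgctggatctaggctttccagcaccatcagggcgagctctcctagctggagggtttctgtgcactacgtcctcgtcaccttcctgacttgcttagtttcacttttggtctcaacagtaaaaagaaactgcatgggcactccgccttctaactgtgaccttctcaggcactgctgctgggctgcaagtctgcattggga
Fas, chr19:34290409-34290708, + strand: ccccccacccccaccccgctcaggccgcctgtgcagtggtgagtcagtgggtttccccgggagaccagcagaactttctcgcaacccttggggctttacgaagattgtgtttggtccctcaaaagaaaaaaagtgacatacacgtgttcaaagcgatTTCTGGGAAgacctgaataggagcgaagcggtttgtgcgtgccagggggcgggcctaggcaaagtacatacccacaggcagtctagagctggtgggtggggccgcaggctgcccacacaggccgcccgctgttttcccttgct
Tnfrsf1b, chr4:145246821-145247120, - strand: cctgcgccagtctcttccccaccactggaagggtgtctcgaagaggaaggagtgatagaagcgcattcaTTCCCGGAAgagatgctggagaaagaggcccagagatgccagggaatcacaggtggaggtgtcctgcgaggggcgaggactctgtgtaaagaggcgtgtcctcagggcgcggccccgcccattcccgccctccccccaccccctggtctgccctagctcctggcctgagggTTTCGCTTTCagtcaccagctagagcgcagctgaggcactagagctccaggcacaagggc
Tnfsf13b, chr8:10006383-10006682, + strand: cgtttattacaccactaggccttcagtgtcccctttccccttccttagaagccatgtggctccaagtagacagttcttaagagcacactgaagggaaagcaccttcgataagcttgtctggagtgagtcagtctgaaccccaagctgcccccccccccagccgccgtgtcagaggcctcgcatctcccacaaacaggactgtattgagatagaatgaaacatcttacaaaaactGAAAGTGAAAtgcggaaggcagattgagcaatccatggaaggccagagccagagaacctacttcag

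The Tnfsf10 window held none of the 3 forms, which says only that these letters are not in these 300 bases. The Fas window held the GAS form, the Tnfrsf1b window the GAS form and, as its reverse complement, the interferon element, and the Tnfsf13b window the interferon element. The match in Tnfsf13b stands beside an LPS difference of 0.02 in KO and -0.04 in WT. Tnfrsf1a held the GAS form, and Tnf and Tnfrsf12a none of the 3. These matches are descriptions of letters.

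Tnfsf10 encodes TRAIL, a ligand that can trigger apoptosis through the receptor Tnfrsf10b and that interferons induce in many cell types. In KO arrays after LPS its values ran from 0.04 to 0.66 with a median of 0.26, and the KO arrays after saline lay at -2.01, -1.56, -1.74 and -1.90. In WT arrays after LPS they ran from -0.35 to 0.30 with a median of 0.02, and the WT arrays after saline lay at -1.74, -1.67, -1.63 and -1.93. Every LPS array thus lay far above every saline array in both genotypes, the widest separation among the 9 genes. Over all genes, 1.21% had LPS arrays wholly above saline arrays in KO and 1.63% in WT. The gene was 4.29-fold higher with LPS in KO (log2 2.10, SE 0.11, adjusted p = 3.38e-12, limma). It was 3.34-fold higher in WT (log2 1.74, SE 0.11, adjusted p = 1.08e-10, limma). Quantile-normalizing the arrays again lowered these log2 differences to 1.26 in KO and 0.96 in WT, and both stayed called.

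Tnf was at 0.11 or below in KO arrays after LPS, ranging from -0.19 with a median of 0.001. The KO arrays after saline lay at -0.12, -0.0013, 0.01 and -0.13. In WT the LPS arrays ran from -0.10 to 0.15 with a median of 0.05, against -0.01, -0.04, -0.07 and -0.0084 after saline. The groups overlapped in both genotypes. The LPS difference was 0.04 in KO (SE 0.05, 95% interval -0.08 to 0.15) and 0.09 in WT (SE 0.05, 95% interval -0.03 to 0.20). Within arrays 1 to 11 of the 22, by the number in the sample titles, it was 0.18 in KO (2 LPS arrays and 1 saline array) and 0.13 in WT (5 and 3 arrays). Within arrays 12 to 22 it was -0.02 in KO (5 and 3 arrays) and -0.02 in WT (2 and 1). Tnf was called in none of the 34 alternative fits in either genotype.

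Tnfsf13b encodes BAFF, a survival factor for B cells. Its LPS arrays ran from -0.11 to 0.15 in KO and from -0.17 to 0.03 in WT, and its saline arrays from -0.08 to 0.06 in KO and from -0.11 to 0.12 in WT. All 4 groups overlapped. The LPS difference was 0.02 (SE 0.05, 95% interval -0.09 to 0.13) in KO and -0.04 (SE 0.05, 95% interval -0.15 to 0.07) in WT.

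**Figure D2:**
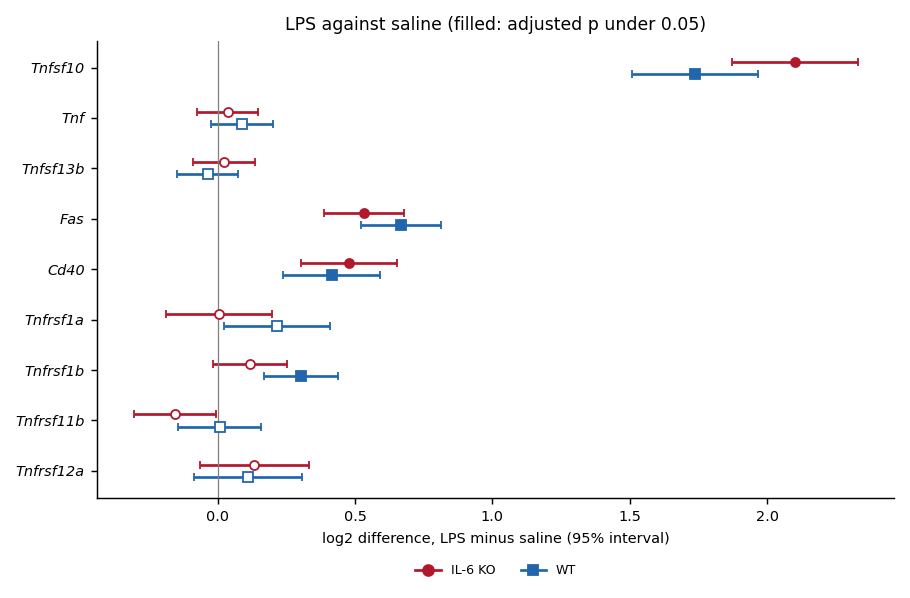
Fitted LPS differences of the 9 genes (x axis, log2 of LPS minus saline, with 95% intervals) in IL-6 KO (red circles) and WT (blue squares). Filled symbols passed an adjusted p of 0.05. Tnfsf10 stands at 2.10 in KO and 1.74 in WT, Fas and Cd40 follow between 0.42 and 0.67, and Tnf lies below 0.10 in both.

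Fas encodes the death receptor for Fas ligand. After LPS its KO arrays ran from -0.21 to 0.22 with a median of 0.0024, against -0.56, -0.59, -0.48 and -0.42 after saline. Its WT arrays ran from 0.02 to 0.29 with a median of 0.07 after LPS, against -0.38, -0.58, -0.66 and -0.48 after saline. No LPS array reached down to a saline array in either genotype. By limma, Fas was 1.45-fold higher with LPS in KO (log2 0.53, SE 0.07, adjusted p = 3.20e-05). The WT increase was 1.59-fold (log2 0.67, SE 0.07, adjusted p = 7.11e-07).

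Tnfrsf1a encodes the main signalling receptor for TNF, present on most cells. It did not pass the test in KO (log2 0.0029, SE 0.09, 95% interval -0.19 to 0.20) or in WT (log2 0.22, SE 0.09, 95% interval 0.02 to 0.41, adjusted p = 0.616, limma). KO arrays after LPS ran from -0.26 to 0.17 with a median of -0.16, and KO arrays after saline lay at 0.03, -0.16, -0.11 and -0.01. WT arrays after LPS ran from -0.07 to 0.44 with a median of 0.13, and WT arrays after saline lay at -0.17, -0.0034, 0.13 and -0.19. The groups overlapped, and within each of the 4 groups the arrays numbered 1 to 11 in the titles averaged higher than those numbered 12 to 22. After LPS the KO means of these blocks were 0.14 (n = 2) and -0.14 (n = 5), and the WT means 0.23 (n = 5) and -0.03 (n = 2). The labels do not say what the number stands for.

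Cd40 encodes the receptor through which T cells activate B cells and myeloid cells. Its KO arrays ran from -0.29 to 0.24 after LPS with a median of 0.10, against -0.52, -0.42, -0.42 and -0.21 after saline. Its WT arrays ran from -0.04 to 0.18 after LPS with a median of 0.01, against -0.62, -0.31, -0.18 and -0.32 after saline. The treatments were apart in WT, while in KO a single LPS array, replicate 5 at -0.29 (pituitary list mean 0.53), lay among the saline arrays. KO LPS replicate 3 and KO saline replicate 2, with higher pituitary list means (0.94 and 1.04), had Cd40 at 0.10 and -0.42. A link between the 2 measures was not tested. Cd40 was 1.39-fold higher with LPS in KO (log2 0.48, SE 0.09, adjusted p = 0.00146, limma) and 1.33-fold higher in WT (log2 0.42, SE 0.09, adjusted p = 0.00526, limma).

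Tnfrsf1b encodes the second TNF receptor, which lacks a death domain and in brain is found mainly on microglia. In KO the LPS arrays ran from -0.14 to 0.28 with a median of 0.0021, against -0.23, 0.04, -0.14 and -0.03 after saline, and the groups overlapped. In WT they ran from -0.01 to 0.25 with a median of 0.11, against -0.27, -0.19, -0.13 and -0.17, and the groups were apart. The gene was 1.23-fold higher with LPS in WT by limma (log2 0.30, SE 0.07, adjusted p = 0.00884). The KO difference was 0.12 (SE 0.07, 95% interval -0.02 to 0.25, adjusted p = 0.998). The interaction did not call a difference between the genotypes in this LPS effect (-0.19, SE 0.09, 95% interval -0.38 to 0.01, adjusted p = 0.999994, limma). That does not show equal effects. The WT calls of Tnfrsf1b and Cd40 were lost without WT saline replicate 1, the lowest of its group for both and the one high in choroid plexus markers. The differences were then 0.28 (adjusted p = 0.0643, limma) and 0.33 (adjusted p = 0.0595, limma), and 2 of the 9 genes were called in WT. Over all genes 288 were called in that fit, beside 359 with all arrays. That fit also holds fewer saline arrays. Leaving out any other single array, the other WT saline arrays included, kept both calls. The cause of the loss was not tested.

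Tnfrsf12a encodes Fn14, the receptor of the ligand TWEAK. Its arrays spread widely within groups, from -0.19 to 0.27 in KO after LPS, from -0.32 to 0.13 in KO after saline, from -0.13 to 0.17 in WT after LPS and from -0.25 to 0.0030 in WT after saline. The LPS difference was 0.13 in KO (SE 0.10, 95% interval -0.06 to 0.33) and 0.11 in WT (SE 0.10, 95% interval -0.09 to 0.31).

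Tnfrsf11b, the soluble decoy receptor, binds the bone-resorbing ligand Tnfsf11 and also TRAIL. Its LPS arrays ran from -0.16 to 0.14 in KO and from -0.20 to 0.20 in WT. Its saline arrays ran from -0.01 to 0.25 in KO and from -0.14 to 0.04 in WT, so the groups overlapped. The LPS difference was -0.16 in KO (SE 0.07, 95% interval -0.31 to -0.01, adjusted p = 0.808, limma) and 0.01 in WT (SE 0.07, 95% interval -0.14 to 0.16).

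Between the genotypes after LPS, the comparison named in the design text, none of the 9 genes was called by limma. Over all genes 0.0401% were called, that is 8 genes, and this count was 614 with array weights, 47 without KO LPS replicate 1, 2 without KO LPS replicate 6, 2 with array number as a term and 0 within either block of array numbers. At an unadjusted p under 0.05 there were 2 members, Tnfsf10 and Tnfrsf1a, beside 11.4% of all genes (2267 of 19935). With array number as a term 1030 of 19935 genes had such a p, among them Tnfsf10 and not Tnfrsf1a. Tnfsf10 averaged 0.30 ± 0.22 in KO and -0.0025 ± 0.19 in WT after LPS (SD, n = 7 each), a difference of 0.30 (SE 0.09, 95% interval 0.10 to 0.50, adjusted p = 0.330, limma). The value ranges overlapped. Of the 7 KO arrays 3 lay above the highest WT array, and of the 7 WT arrays 5 lay below the lowest KO array.

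Array number moved with genotype, since arrays 1 to 11 held 2 KO and 5 WT arrays after LPS, and arrays 12 to 22 held 5 KO and 2 WT arrays. With this block as a term, the Tnfsf10 difference was 0.27 (SE 0.10), and it was 0.15 (SE 0.12) within arrays 1 to 11 and 0.38 (SE 0.13) within arrays 12 to 22. All had adjusted p-values of 0.643 or more. Tnfrsf1a, the receptor that differed by block, averaged -0.06 ± 0.18 in KO and 0.16 ± 0.17 in WT after LPS (SD, n = 7 each). Its difference was -0.22 (SE 0.08, adjusted p = 0.344, limma). With the block as a term it was -0.12 (SE 0.06, adjusted p = 0.963), and within the blocks -0.09 (SE 0.09) and -0.11 (SE 0.09). The part of array number in these differences was not tested further.

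**Figure D3:**
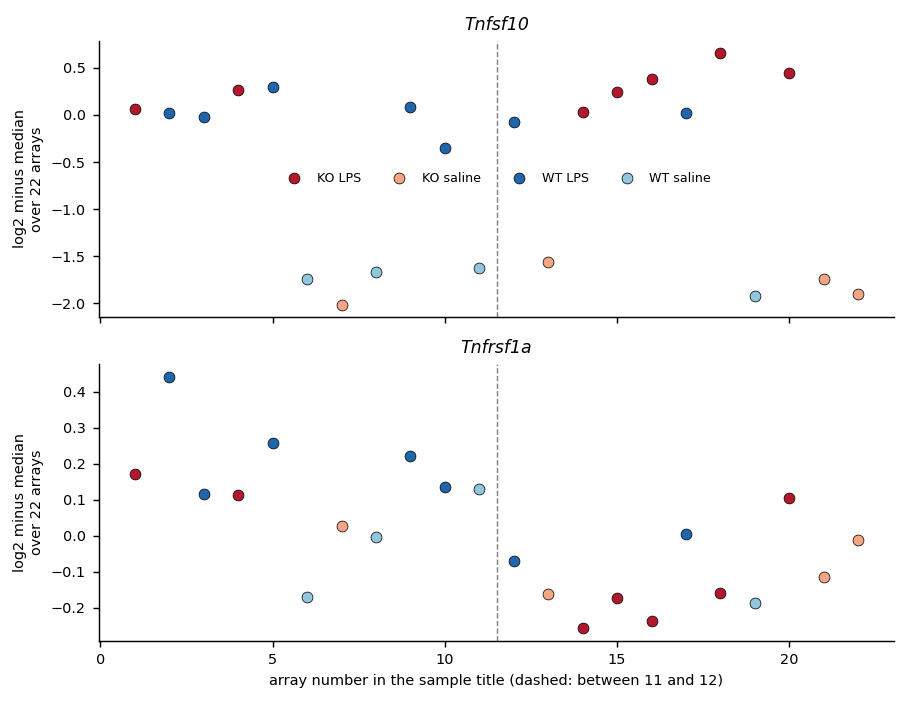
Values of Tnfsf10 and Tnfrsf1a (y axes, log2 minus the median over 22 arrays) by the array number in the sample title (x axis), coloured by group. Tnfsf10 separates LPS from saline arrays on both sides of the dashed line, while Tnfrsf1a arrays after LPS lie between 0.11 and 0.44 to its left and between -0.26 and 0.10 to its right.

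The other members differed between KO and WT after LPS by between -0.12 for Fas (SE 0.06, 95% interval -0.24 to 0.0044) and 0.09 for Tnfsf13b (SE 0.05, 95% interval -0.01 to 0.18). For Tnf the difference was -0.08 (SE 0.05, 95% interval -0.17 to 0.02). Cd40 differed by 0.03 (SE 0.07, 95% interval -0.12 to 0.18), and by 0.05 with array number as a term (95% interval -0.11 to 0.21). After saline none of the 9 genes was called by limma, and none had an unadjusted p under 0.05 (0.00502% called and 5.17% at that unadjusted level over all genes). The differences ran from -0.06 for Tnfsf10 to 0.13 for Tnfrsf11b.

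The LPS effects of the genotypes were compared by the interaction, which called no gene (0% of all genes, limma). At an unadjusted p under 0.05 it gave 1 member, Tnfsf10, and 1.64% of all genes. The Tnfsf10 effect was larger in KO by 0.36 (SE 0.16, 95% interval 0.04 to 0.69, adjusted p = 0.999994, limma). The differences for Tnfrsf1a (-0.21), Tnfrsf1b (-0.19), Tnfrsf11b (-0.16) and Fas (-0.14) were of the other sign, each with a 95% interval that included 0 in this fit. With array number as a term the Tnfrsf1a interaction was -0.23 (95% interval -0.43 to -0.03), and with array weights that of Tnfrsf1b was -0.21 (95% interval -0.41 to -0.02). Neither was called, as no gene was in these fits.

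**Figure D4:**
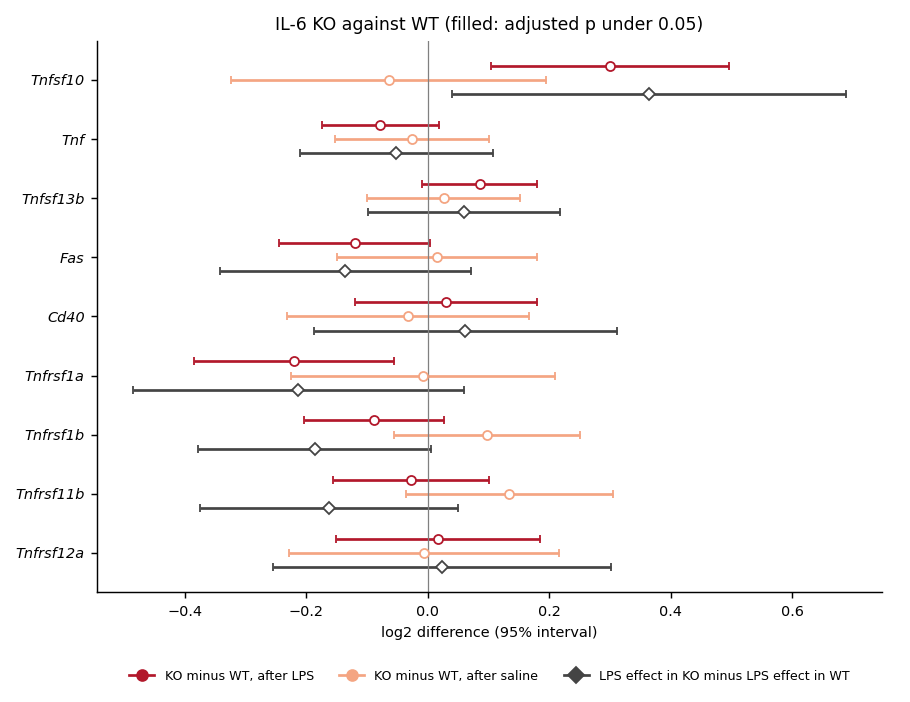
Differences between IL-6 KO and WT for the 9 genes (x axis, log2 with 95% intervals) after LPS (red), after saline (orange) and as the LPS effect in KO minus that in WT (grey diamonds). All symbols are open, since none passed an adjusted p of 0.05. Tnfsf10 lies highest at 0.30 after LPS and 0.36 in the interaction.

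Ordered by group mean, Tnfsf10 was highest in KO after LPS (0.30), then in WT after LPS (-0.0025), in WT after saline (-1.74) and in KO after saline (-1.81). Only the step from LPS to saline arrays passed the test. Fas ran in the order WT after LPS (0.14), KO after LPS (0.02), KO after saline (-0.51) and WT after saline (-0.53), again with the treatment step alone called. Cd40 ran from 0.09 in KO and 0.06 in WT after LPS to -0.36 in WT and -0.39 in KO after saline. Tnfrsf1b ran in the order WT after LPS (0.11), KO after LPS (0.02), KO after saline (-0.09) and WT after saline (-0.19), and no neighbours in this order were told apart. For Tnf, Tnfsf13b, Tnfrsf1a, Tnfrsf11b and Tnfrsf12a none of the comparisons between groups passed the test.

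Within groups, the members did not vary as 1 block. As a description over the 22 arrays' deviations from their group means, which share array quality and normalization, Tnfrsf12a and Cd40 had the highest correlation (Pearson's r = 0.64). Tnfrsf1b followed with Tnfrsf12a (r = 0.62), and Tnfsf10 with Tnfrsf11b had the lowest (r = -0.30). Cd40 and Tnfrsf12a were both lowest of their group in KO LPS replicate 5 (-0.29 and -0.19) and in WT saline replicate 1 (-0.62 and -0.25). The part of these arrays in the r of 0.64 was not tested. By the same correlation of deviations, the gene most like Tnfsf10 was Samhd1, a nucleotide hydrolase that restricts viruses (r = 0.79). Zfp810 (r = 0.78) and Tut7, an RNA uridylyltransferase (r = 0.77), followed. With LPS, Samhd1 rose by 0.81 in KO and 0.83 in WT, Tut7 rose in WT (0.30) and had 0.17 in KO without passing the test, and Zfp810 was called in neither (0.02 in KO and -0.09 in WT). Those most like Fas were Ccrl2, an atypical chemokine receptor (r = 0.71), Ch25h, a cholesterol hydroxylase (r = 0.70), and the chemokine gene Cxcl11 (r = 0.70). All 3 were called higher with LPS in both genotypes, by between 0.81 and 1.34. Over all genes, 1.08% were called higher in KO and 1.42% in WT. For each member these genes were picked as the highest of all genes. How high such values run by chance was not tested. The genes most like Cd40 (Wtip, Cryaa and Myo1g, r = 0.86 to 0.87) and most like Tnfrsf1b (Taar8b, Krt23 and Plac8, r = 0.77 to 0.81) were called with LPS in neither genotype.

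In the rest of the superfamily no gene measured was called with LPS. As levels were lost, genes too dim to read cannot be told from unchanged ones. Of 13 further ligand genes measured, none was called in either genotype by limma. At an unadjusted p under 0.05 there were 1 in KO and 0 in WT, beside 5.84% and 6.42% of all genes. Their median LPS difference was 0.01 in KO and -0.03 in WT, beside -0.01 over all genes in each genotype. Among these ligands Lta, which encodes lymphotoxin alpha, had -0.15 in KO (SE 0.05, adjusted p = 0.367, limma). Tnfsf11, which encodes RANKL, had -0.15 in WT (SE 0.09, adjusted p = 0.927, limma). Of 22 further receptor genes, none was called, with medians of -0.03 in KO and -0.01 in WT. At an unadjusted p under 0.05 there were 2 in KO and 3 in WT, beside 5.84% and 6.42% of all genes. Tnfrsf19 had -0.13 in KO (SE 0.05, adjusted p = 0.345) and Tnfrsf22 had -0.17 in WT (SE 0.06, adjusted p = 0.235). Tnfsf12 and Tnfsf13 share 1 probe set on this array and were left out of the gene fits.

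Downstream of the receptors, 38 genes were listed: adaptors, kinases and ubiquitin enzymes, and also genes of cell death and of NF-kB. Of these, 34 had gene values, and Traf3, Ripk1, Chuk and Nfkb1 had none. With LPS, 4 of the 34 rose in KO and 5 of the 34 in WT, beside 1.08% and 1.42% of all genes, and none was called lower. The medians of all 34 were -0.00029 in KO and 0.03 in WT. At an unadjusted p under 0.05 there were 11 in KO and 12 in WT, beside 5.84% and 6.42% of all genes. The genes called in both genotypes were Nfkbia, Birc3, Tnfaip3 and Nfkb2. Nfkbia, which encodes the inhibitor IkB alpha, was 2.55-fold higher in KO (log2 1.35, SE 0.13, adjusted p = 9.02e-08, limma) and 2.57-fold higher in WT (log2 1.36, SE 0.13). Birc3, which encodes the ubiquitin ligase cIAP2 that binds TRAF adaptors, was 1.61-fold higher in KO (log2 0.68, SE 0.13, adjusted p = 0.00409) and 2.04-fold higher in WT (log2 1.03, SE 0.13). Tnfaip3, which encodes the deubiquitinase A20, had 0.56 in KO (SE 0.14, adjusted p = 0.0375) and 0.72 in WT (SE 0.14, adjusted p = 0.0030). Nfkb2, the precursor of the non-canonical NF-kB subunit, had 0.34 in KO (SE 0.08, adjusted p = 0.0454) and 0.49 in WT (SE 0.08, adjusted p = 0.000803).

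The KO calls of Nfkb2 and Tnfaip3 were close to the threshold and were lost in 21 and 14 of 34 alternative fits. The KO call of Birc3 was lost within each block of array numbers (adjusted p up to 0.109, limma). The WT calls of Birc3, Tnfaip3, Nfkb2 and Mlkl were lost within arrays 12 to 22 (adjusted p from 0.448 to 0.794, limma), which hold 2 WT arrays after LPS and 1 after saline. Mlkl, the pore-forming protein of necroptosis, rose in WT by 0.44 (SE 0.07, adjusted p = 0.000262, limma). In KO it had 0.27 (SE 0.07, adjusted p = 0.0626). The interaction for Mlkl was -0.18 (SE 0.10, adjusted p = 0.999994). Between KO and WT after LPS none of the 34 was called (6 at an unadjusted p under 0.05, beside 11.4% of all genes). Casp8, the caspase that death receptors activate, had the smallest p there, at -0.19 (SE 0.05, adjusted p = 0.294, limma).

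**Figure D5:**
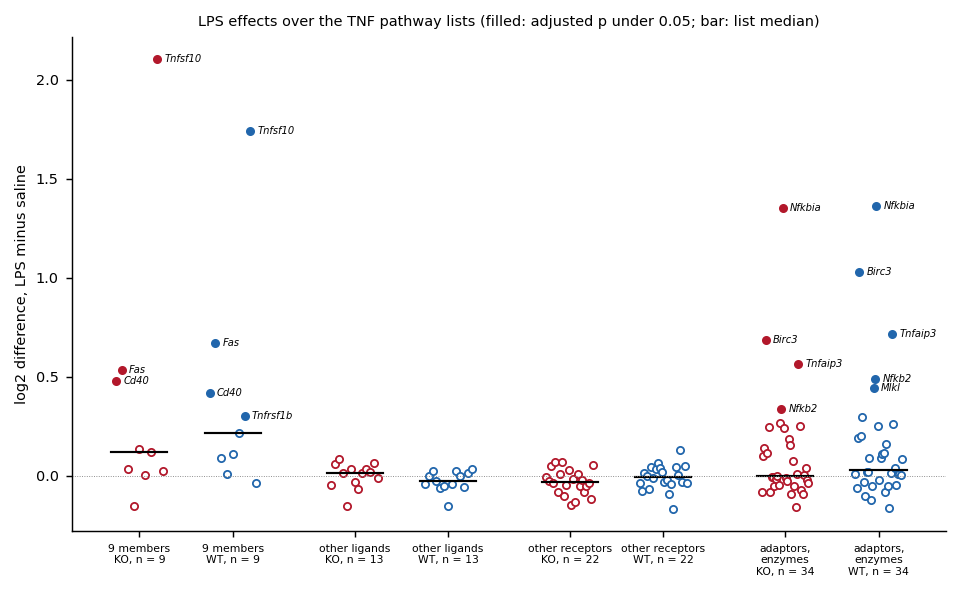
LPS differences (y axis, log2 of LPS minus saline) of the 9 genes, 13 other ligands, 22 other receptors and 34 downstream signalling genes (labelled adaptors, enzymes) in IL-6 KO (red) and WT (blue). Filled, named points passed an adjusted p of 0.05 and black bars are list medians. No called point lies in the lists of other ligands and other receptors.

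Endothelial markers moved with LPS beside these genes. Of 16 such markers, 9 were called lower in KO, and 9 lower and 1 higher in WT. Over all genes, 0.256% were called lower in KO and 0.376% in WT, and 1.42% higher in WT. The mean of the endothelial markers per array ran from -0.10 to 0.05 in KO after LPS, against 0.20 to 0.34 after saline. In WT it ran from -0.15 to -0.06 after LPS, against 0.17 to 0.29 after saline. The treatments were thus apart in both genotypes. Of 15 microglia markers, 0 were called by limma in KO and 2 lower in WT. At an unadjusted p under 0.05 there were 4 in KO and 8 in WT, beside 5.84% and 6.42% of all genes. Microglia means ran from -0.08 to 0.05 in KO after LPS, against 0.01 to 0.07 after saline. In WT they ran from -0.10 to -0.0043 after LPS, against -0.0026 to 0.11 after saline. Of 13 blood leukocyte markers none was called by limma (at an unadjusted p under 0.05, 0 in KO and 1 in WT), and their means overlapped between all groups. None of 10 astrocyte, 9 oligodendrocyte, 10 pericyte and 15 hypothalamic neuron markers was called with LPS in either genotype. At an unadjusted p under 0.05 these lists gave, in this order, 1, 2, 0 and 1 in KO and 2, 2, 0 and 1 in WT. In whole tissue, fewer cells of a type and less RNA per cell cannot be told apart. The part of these cell types in the changes of Tnfsf10, Fas, Cd40 and Tnfrsf1b was not tested.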

How the data were processed

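The deposited file holds values, read as log2, of 28815 probe sets for 22 arrays of hypothalamic RNA (200 ng per array, taken after saline perfusion, per the labels' protocols). The submitters' processing notes name RMA; its version, the build and the annotation are not given in the sources used here. Each row's median was within 7.02e-07 of 0, so the deposited values are differences between arrays. Base 2 was inferred: 99.9% of 619801 values were whole steps (tolerance 0.03) of single-precision numbers of RMA size. Such steps bear on the size of the numbers and do not by themselves fix the base, on which all folds rest.

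Probe sets with 1 symbol (21780, of which 21689 matched RefSeq GRCm38.p6 by gene ID) were averaged per gene, giving 19935 genes. No probe set listing several symbols named a member. limma 3.58.1 in R 4.3.3 fitted 1 mean per group over all 22 arrays, with empirical Bayes moderation and two-sided tests of 5 contrasts. P-values were adjusted by Benjamini-Hochberg over all genes. The fit was tested on simulated data. Alternatives changed the probe set summary, the array-number block, the normalization, the weights, the moderation and the arrays included. Centred values allow no filter on dim genes, and a filter on variance was run. Replicates were numbered in accession order and pair nothing. The number of arrays limits the precision.

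The members and lists were chosen with earlier results of these data known. The text names all members, the called genes of each pathway list or at most the 1 with the smallest p where none was called, and the 3 genes most correlated with each member called after LPS.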

Additional observations from a re-analysis of the deposited data

Results flagged for a closer look

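Of 36 sets of values (9 genes in 4 groups), 2 held an array far from the others by Dixon's test, which chance flags in about 1 of 20 sets. Cd40 in KO LPS replicate 5 lay at -0.29, with the next array of its group at 0.08. This array had a pituitary list mean of 0.53, while KO LPS replicate 3, with 0.94, had Cd40 at 0.10. Without KO LPS replicate 5 the KO effect of LPS on Cd40 was 0.54 on the log2 scale and called (adjusted p = 3.16e-05, limma), beside 0.48 with it. Tnfrsf12a in WT saline replicate 1 lay at -0.25, with the next array at -0.03. That array was also the highest in choroid plexus markers, with a list mean of 0.93.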

How the results depend on the processing

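No paired analysis was possible because the labels give each array its own number and the groups share none. Of 34 alternative fits per comparison (33 for the interaction), the count of 4 members called in WT after LPS changed to 1 within arrays 12 to 22 (Tnfsf10) and to 2 without the 4 arrays taken as high in choroid plexus or pituitary genes (WT saline replicate 1, WT LPS replicate 5, KO saline replicate 2 and KO LPS replicate 3), and leaving out single arrays gave 2 to 4, the 2 being without WT saline replicate 1. KO LPS replicate 5, with a pituitary list mean of 0.53, stayed among the arrays of that fit, and was left out only in the fits without single arrays. The KO count of 3 was 2 to 3 in the alternatives, and the counts of 0 for the genotype comparisons and the interaction stayed 0 in all. Lost WT calls had log2 values of 0.63 for Fas, 0.33 for Cd40 and 0.20 for Tnfrsf1b within arrays 12 to 22, and of 0.32 for Cd40 and 0.27 for Tnfrsf1b without the 4 arrays. Lost KO calls were Fas within arrays 1 to 11 (0.58, adjusted p = 0.0719, limma) and Cd40 within arrays 12 to 22 (0.38, adjusted p = 0.133, limma). Fits within a block hold fewer arrays; otherwise the cause was not tested. Over all genes, 359 were called in WT after LPS and 45 within arrays 12 to 22, and 267 in KO after LPS and 145 and 166 within the blocks. Between KO and WT after LPS the count of 8 was 2 with the fixed block, 0 within each block, 1 in the 2 groups alone, 1 without the 4 arrays, 16 after quantile normalization, 16 with the least variable genes left out, 614 with array weights and 2 to 47 with single arrays left out (47 without KO LPS replicate 1, 2 without KO LPS replicate 6). With array weights Tnfsf10 had an adjusted p of 0.0571 and Tnfrsf1a of 0.0560 (limma). Between KO and WT after saline the count of 1 was 0 to 3. Member differences kept sign and side of the threshold in 1442 fits, lost the call in 9 and changed sign in 70, all of these uncalled. Many of the 1442 could not change sign. Each member has 1 probe set, so fitting each probe set on its own returns the same log2 difference. The fits with changed moderation, with the variance filter and of the 2 groups alone also leave it unchanged. So does leaving out an array of a group outside the comparison. The 1442 are therefore not separate checks of sign. Within arrays 12 to 22, the values of opposite sign were, for the WT effect of LPS, Tnf -0.018, Tnfrsf11b -0.050 and Tnfsf13b 0.039, and for the KO effect of LPS, Tnf -0.017 and Tnfrsf1a -0.048, and for KO minus WT after saline, Tnfrsf1a 0.092, Tnfsf10 0.19, Fas -0.011 and Tnfrsf12a 0.0073, and for the interaction, Tnf 0.0013 and Tnfsf13b -0.014. Without the 4 arrays, the values of opposite sign were, for the WT effect of LPS, Tnfrsf11b -0.056, and for KO minus WT after LPS, Tnfrsf12a -0.0062, and for KO minus WT after saline, Tnfsf13b -0.00091. With array weights, the values of opposite sign were, for the KO effect of LPS, Tnf -0.023, and for KO minus WT after saline, Fas -0.0051 and Tnfrsf12a 0.040, and for the interaction, Tnfrsf12a -0.025. With array number as a fixed term, the values of opposite sign were, for the KO effect of LPS, Tnfrsf1a -0.0054, and for KO minus WT after saline, Tnf 0.0027 and Tnfrsf1a 0.11. With it as a random block, the values of opposite sign were, for the KO effect of LPS, Tnfrsf1a -0.0017, and for KO minus WT after saline, Tnfrsf1a 0.057. Within arrays 1 to 11, the values of opposite sign were, for the KO effect of LPS, Tnfrsf11b 0.093, and for KO minus WT after LPS, Tnfrsf11b 0.076, and for KO minus WT after saline, Tnfrsf1a 0.042, Tnfrsf1b -0.037, Fas -0.020 and Tnfsf13b -0.0021, and for the interaction, Tnf 0.048 and Tnfrsf11b 0.063. After quantile normalization, the values of opposite sign were, for KO minus WT after saline, Tnfrsf12a 0.0090. Leaving out 1 array at a time turned the sign of some uncalled values, which ranged as follows. For the WT effect of LPS the range was Tnfrsf11b -0.034 to 0.037 and Tnfsf13b -0.064 to 0.012. For the KO effect of LPS the range was Tnfrsf1a -0.036 to 0.035 and Tnfsf13b -0.0035 to 0.045. For KO minus WT after LPS the range was Tnfrsf11b -0.058 to 0.0082 and Tnfrsf12a -0.020 to 0.057. For KO minus WT after saline the range was Tnfrsf1a -0.051 to 0.055, Tnfsf10 -0.15 to 0.0053, Fas -0.029 to 0.065, Tnfrsf12a -0.077 to 0.073, Cd40 -0.12 to 0.027 and Tnfsf13b -0.00057 to 0.075. For the interaction the range was Tnfrsf12a -0.056 to 0.094.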
